A study of Homo sapiens with 4 samples.

Results

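The E proteins TCF3, TCF4 and TCF12 and the inhibitors ID1, ID2 and ID3 were followed in Z138, an established human line derived from mantle cell lymphoma, a cancer of B cells. The 6 genes were taken as every probe set of the Affymetrix U133 Plus 2.0 array whose platform annotation gives exactly 1 of these symbols, which made 30 of the 54675 probe sets in the table. TCF3 had 14 of them, TCF4 8, TCF12 4, ID2 2, and ID1 and ID3 had 1 each. All cells carried a stably integrated lentiviral short hairpin RNA. In the shControl group 2 arrays held cells with the scramble hairpins shControl.1 and shControl.2, and in the shSOX11 group 2 arrays held cells with the hairpins shSOX11.1 and shSOX11.3 against the transcription factor SOX11. The comparison was set up to find genes whose expression depends on SOX11 in these cells. SOX11 itself stood at 42.5% of the control level in the shSOX11 group, so the model is a partial knockdown in 1 cell line. Each array is a different construct, and the labels do not say that constructs were grown as separate cultures, so the p-values reflect no more than the spread among these 4 samples, part or all of which may be technical.

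E proteins are basic helix-loop-helix transcription factors that pair with one another or with other helix-loop-helix proteins and bind the E-box, a short DNA motif. TCF3 encodes the E2A proteins, which are required for B-cell development, TCF4 encodes E2-2 and TCF12 encodes HEB. TCF4 is a different gene from the Wnt pathway factor once known by that name. ID proteins have the helix-loop-helix but lack the basic DNA-binding region, so a pair of an ID protein and an E protein cannot bind the E-box. In B cells TCF3 and its inhibitor ID3 are best known as a pair that sets E2A activity, and both are recurrently mutated in Burkitt lymphoma.

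The promoter windows of TCF3 and ID3, the 2 genes under an unadjusted p of 0.05 in limma at their brightest probe sets, and of ID2, which differed most between the shSOX11 hairpins, were read from RefSeq on GRCh38.p14. Each runs 5′ to 3′ from 250 bases before to 50 bases after the gene's start, and capitals mark E-boxes (CANNTG) or the SOX-type motifs ACAAAG and ACAATG on either strand. TCF3 lies on the minus strand at chr19:1652566-1652865, ID3 on the minus strand at chr1:23559452-23559751, and ID2 on the plus strand at chr2:8681806-8682105.
TCF3: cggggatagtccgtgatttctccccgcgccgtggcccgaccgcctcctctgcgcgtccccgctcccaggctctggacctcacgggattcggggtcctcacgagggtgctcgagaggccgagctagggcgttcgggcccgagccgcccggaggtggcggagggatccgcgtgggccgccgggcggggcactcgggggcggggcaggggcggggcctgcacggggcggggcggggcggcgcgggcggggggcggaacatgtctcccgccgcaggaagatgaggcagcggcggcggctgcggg
ID3: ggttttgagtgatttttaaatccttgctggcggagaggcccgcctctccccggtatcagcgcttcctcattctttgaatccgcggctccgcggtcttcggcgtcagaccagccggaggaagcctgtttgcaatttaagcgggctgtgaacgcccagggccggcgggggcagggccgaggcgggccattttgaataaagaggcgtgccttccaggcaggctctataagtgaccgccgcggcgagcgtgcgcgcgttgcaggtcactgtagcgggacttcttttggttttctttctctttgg
ID2: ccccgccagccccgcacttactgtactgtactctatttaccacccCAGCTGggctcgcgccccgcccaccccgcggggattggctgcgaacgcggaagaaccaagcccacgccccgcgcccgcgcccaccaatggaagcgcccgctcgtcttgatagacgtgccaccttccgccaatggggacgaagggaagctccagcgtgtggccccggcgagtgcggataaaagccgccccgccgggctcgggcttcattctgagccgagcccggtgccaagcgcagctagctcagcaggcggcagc
The window of ID2 holds 1 E-box, CAGCTG, at base 46 of the window. The letters of an E-box are not in the windows of TCF3, ID3 or ID1, and neither SOX-type motif is in the windows of these 3 genes or of ID2. Among all 35116 RefSeq promoter windows of 300 bases, 68.7% hold an E-box, 17.9% hold CAGCTG, 16.1% hold ACAAAG and 10.8% hold ACAATG. TCF4 and TCF12 have several start sites, and an E-box is in 7 of 10 windows of TCF4 and in 2 of 5 of TCF12, while a SOX-type motif is in 3 and 4 of them.

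The arrays had equal 2% trimmed mean signals of 150.0, and 24.8, the median of all values, served as the signal threshold. A probe set was tested where it exceeded the threshold on at least 2 of 4 arrays, which kept 28202 probe sets and 26 of the 30 of the E protein and ID genes. Of 8 B-cell and lymphoma markers, 7 (MS4A1, CD79A, CD79B, PAX5, CCND1, SOX11 and PTPRC) exceeded the threshold on all 4 arrays, and CD22 was under it with shSOX11.3 alone, at 4.94. Their summed signal was 23178 and 22801 with the control hairpins and 19013 and 20455 with the SOX11 hairpins. At 6 of the 8 both shSOX11 arrays were below both shControl arrays, where 24.9% of all genes were. SOX11, the target of the hairpins, is among these 6. The 3′/5′ signal ratio of beta-actin, which falls with longer labelled RNA, read 11.6 with each control hairpin, 7.29 with shSOX11.1 and 5.31 with shSOX11.3, and its part in the results below was not tested. The summed signal of 12 T and NK cell markers was 419 and 420 with the control hairpins and 376 and 345 with the SOX11 hairpins, with CD3G and CD247 above the threshold on all arrays and 5 of the 12 (CD7, CD8A, TRAT1, GNLY and KLRD1) on none. The sum of 4 erythroid markers was 129 and 97.5 against 83.5 and 87.0, with HBB above the threshold on all arrays and SLC4A1 on none. The sums of 9 myeloid markers (130 to 163) and 10 epithelial and stromal markers (1014 to 1203) did not separate the groups. The 3 myeloid markers that were tested were higher in the mean, and 2 of them did not overlap between the groups (16.2% of all genes were higher with no overlap). CSF3R was at 8.51 and 7.67 against 30.6 and 30.3, and CSF1R at 15.1 and 8.98 against 25.7 and 28.9. Both exceeded the threshold on the shSOX11 arrays alone and were tested only through them. Their direction was thus set by the filter and is not evidence of a gain. Of the myeloid markers none was above the threshold on all arrays, and CD14, LYZ, S100A8 and FCGR3B were on none. Of the epithelial and stromal markers 3, COL1A1, KRT8 and KRT18, were above it on all arrays and 5, EPCAM, KRT19, CDH1, COL3A1 and PDGFRB, on none. Most of the epithelial and stromal sum was COL1A1. It was at 1063 and 1012 with the control hairpins and 1047 and 881 with the SOX11 hairpins. No marker signal was exactly 0.

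At the probe sets that represent the genes, TCF3, ID3 and, by a small margin, TCF12 were lower on both shSOX11 arrays. Of all genes 24.9% were lower with no overlap between the groups. TCF4 differed little, ID2 went opposite ways with the 2 hairpins, and ID1 was near the threshold. Every gene was represented by its brightest probe set over all arrays, and shSOX11 minus shControl was tested with limma over 11938 genes. None of the 6 genes passed an adjusted p of 0.05 in limma, nor did any gene on the arrays (0% called), and 2 of the 6, TCF3 and ID3, lay under an unadjusted 0.05 in limma, both lower, where 4.98% of all genes were lower and 3.4% higher at that level. That balance depends on the scaling: 595 genes were lower and 406 higher as deposited, and 372 lower and 687 higher with each array centred on its median.

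**Figure D1:**
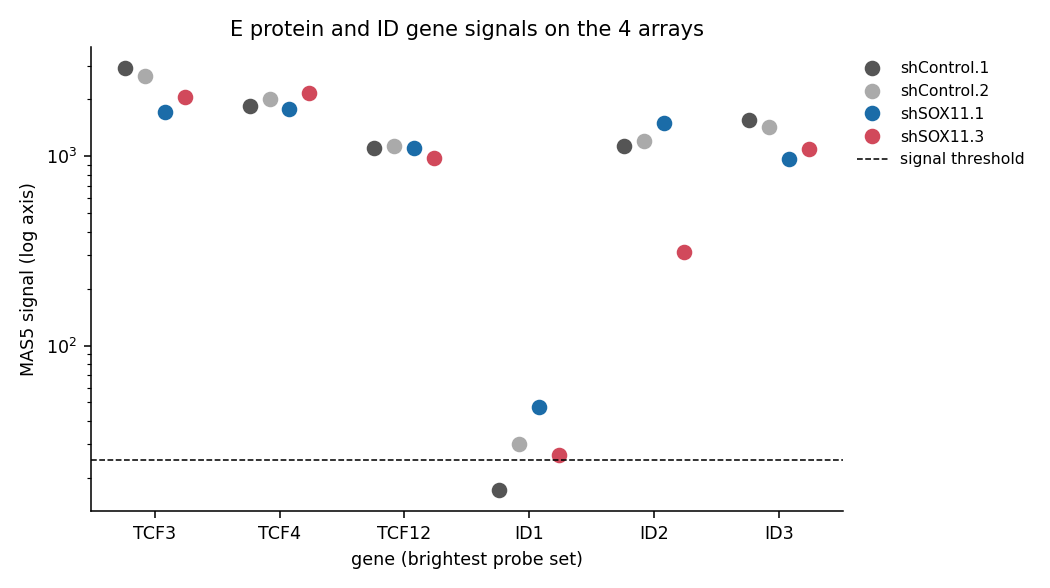
MAS5 signal (log axis) of the brightest probe set of each of the 6 genes on the 4 arrays, 1 point per array, with the signal threshold of 24.8 as a dashed line. TCF3 and ID3 lie lower on both shSOX11 arrays, TCF12 by much less, ID2 stands apart with shSOX11.3 at 311, and heights are to be compared within a gene only, since probe sets differ in response.

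TCF3 signal at its brightest probe set, 209153_s_at, was 2917 and 2649 with the control hairpins, 1717 with shSOX11.1 and 2067 with shSOX11.3. The groups did not overlap, and shSOX11.1 was the lowest. The log2 means were 11.44 ± 0.10 and 10.88 ± 0.19 (SD, n = 2 each), a log2 change of -0.56 (SE 0.15), or 1.48-fold lower (limma unadjusted p = 0.00573, adjusted p = 0.405 over all genes). With 2 arrays a group, 0.333 is the smallest two-sided p that an exact permutation test could reach.

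The other TCF3 probe sets did not share the size of that difference. Of the 10 that were kept, 6 were lower and 4 higher in the mean, between -0.56 and 0.47 on the log2 scale with a median of -0.09, against -0.03 over all probe sets tested. At 209152_s_at the groups also did not overlap, with signals of 883 and 1138 with the control hairpins and 804 and 819 with the SOX11 hairpins, a log2 change of -0.30 (SE 0.18, limma adjusted p = 0.659 over 28202 probe sets). The bright probe sets 213811_x_at and 210776_x_at gave smaller differences, -0.12 (SE 0.15) and -0.06 (SE 0.15), with overlapping groups. Both are of the kind that Affymetrix marks _x_at for possible cross-hybridization with other transcripts. For 215260_s_at the signal was 200 and 233 with the control hairpins, 211 with shSOX11.1 and 112 with shSOX11.3, so only the shSOX11.3 array was low. The 4 that were higher in the mean were dim, between 22.4 and 124 on all arrays, and at 2 of these (209151_x_at and 216647_at) the groups did not overlap. Of the 10 kept, 2 were thus lower and 2 higher with no overlap, where 21.8% and 18.9% of all kept probe sets were.

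The mean of the 10 kept TCF3 probe sets, bright and dim weighted alike, gave a log2 change of -0.08 in place of -0.56. The limma adjusted p was between 0.476 and 0.942 over the 10 probe sets. Of the 4 that were not kept, 213731_s_at and 213809_x_at were not above the threshold on any array. The other two exceeded it on shControl.2 alone, 213732_at at 31.9 and 228052_x_at at 34.3, and lay under it on both shSOX11 arrays, at 4.67 and 22.2 for the first and at 3.75 and 23.4 for the second.

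TCF4 was measured by 8 probe sets, all kept. At the brightest, 212386_at, signals were 1855 and 2022 with the control hairpins, 1790 with shSOX11.1 and 2171 with shSOX11.3, a log2 change of 0.03 (SE 0.15, limma adjusted p = 0.968 over all genes). The shSOX11 arrays lay on either side of the shControl arrays. At 203753_at the signals were 832 and 959 against 789 and 1238, in the same order of hairpins, and at 212385_at they were 294 and 260 against 249 and 452. The shSOX11.3 array was higher than shSOX11.1 at 7 of the 8 TCF4 probe sets, where 49.5% of all kept probe sets were. It was above both shControl arrays at 6 of 8 (36.2% of all), and shSOX11.1 was below both at 7 of 8 (38.3% of all). These probe sets measure 1 gene in the same 4 RNA samples and are not independent of one another.

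Group means averaged over that split between the hairpins, which rests on 1 array per hairpin and has no replicate check. Among kept probe sets with mean log2 signals within 1, 38.2% had a gap as wide as 212386_at. Over the 8 TCF4 probe sets this share ran from 3.63% (222146_s_at) to 83.1% (228837_at). At 222146_s_at the log2 gap was 0.94 between the shSOX11 arrays and 0.77 between the shControl arrays. The log2 changes of TCF4 between groups ran from -0.33 to 0.28, with 3 probe sets lower and 5 higher in the mean and 0 of 8 under an unadjusted p of 0.05 or past an adjusted one in limma. The lowest, 213891_s_at, was the only TCF4 probe set whose groups did not overlap (21.8% of all kept probe sets were lower with no overlap). It was at 1812 and 1563 with the control hairpins and 1250 and 1438 with the SOX11 hairpins. Its group difference on the log2 scale was -0.33 (SE 0.16, limma adjusted p = 0.619 over 28202 probe sets).

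TCF12 signal at its brightest probe set, 208986_at, was 1110 and 1132 with the control hairpins, 1107 with shSOX11.1 and 982 with shSOX11.3. The groups did not overlap, but shSOX11.1 lay next to the lower shControl array, and the log2 change was -0.10 (SE 0.15, limma adjusted p = 0.846 over all genes). It was -0.02 without shSOX11.3 or with median centring and -0.19 without shSOX11.1 or from the mean of the TCF12 probe sets. A dimmer TCF12 probe set, 215611_at, was lower on both shSOX11 arrays, at 81.2 and 98.4 against 127 and 136, a log2 change of -0.56 (SE 0.23, limma unadjusted p = 0.0398, adjusted p = 0.583 over 28202 probe sets). At 238041_at and 233678_at shSOX11.1 was lower and shSOX11.3 higher than both shControl arrays, and the log2 changes were 0.04 (SE 0.24) and -0.14 (SE 0.28).

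ID3, the inhibitor paired with E2A in B cells, had signals of 1563 and 1422 with the control hairpins, 971 with shSOX11.1 and 1090 with shSOX11.3 at its single probe set, 207826_s_at. Both shSOX11 arrays were low and the groups did not overlap. The log2 means were 10.54 ± 0.10 and 10.01 ± 0.12 (SD, n = 2 each), a log2 change of -0.54 (SE 0.15), or 1.45-fold lower (limma unadjusted p = 0.00646, adjusted p = 0.408 over all genes). No second probe set of ID3 was there to compare.

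ID2, which restrains E proteins in many blood cell lineages, showed the widest spread of the 6 genes between the hairpins. At 201565_s_at its signal was 1132 and 1208 with the control hairpins, 1502 with shSOX11.1 and 311 with shSOX11.3. At 201566_x_at it was 185 and 264 with the control hairpins, 348 with shSOX11.1 and 70.1 with shSOX11.3. At both probe sets shSOX11.1 was the highest of the 4 arrays and shSOX11.3 the lowest.

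Against the control mean the log2 difference of ID2 at 201565_s_at was 0.36 with shSOX11.1 and -1.91 with shSOX11.3, which put the 2 shSOX11 arrays 4.82-fold apart. At 201566_x_at they were 4.96-fold apart. Among all kept probe sets 1.13% were at least 4-fold lower with shSOX11.3 than with shSOX11.1. A gap as wide as that at 201565_s_at, in either direction, was found for 1.81% of all kept probe sets and, among the 4464 with mean log2 signals within 1 of it, for 1, which is ID2 itself. For 201566_x_at it was found for 4 of 8222, itself included. With 1 array per hairpin this gap has no replicate check, and ID2 was singled out here after its values were seen. SOX11 was alike on both arrays, at 335 with shSOX11.1 and 339 with shSOX11.3. Between the groups the log2 change of ID2 was -0.77 (SE 0.57, limma adjusted p = 0.699 over all genes) and turned to 0.36 when shSOX11.3 was left out.

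ID1 was close to the signal threshold, at 17.2 and 30.1 with the control hairpins, 47.3 with shSOX11.1 and 26.2 with shSOX11.3 at its single probe set, 208937_s_at. The shControl.1 array was under the threshold and the groups overlapped. The group difference on the log2 scale was 0.63 (SE 0.57, limma adjusted p = 0.749 over all genes). It was 0.30 with 32 added to each signal, and leaving out 1 array gave 0.23 (shControl.1), 1.04 (shControl.2), 0.21 (shSOX11.1) and 1.06 (shSOX11.3).

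**Figure D2:**
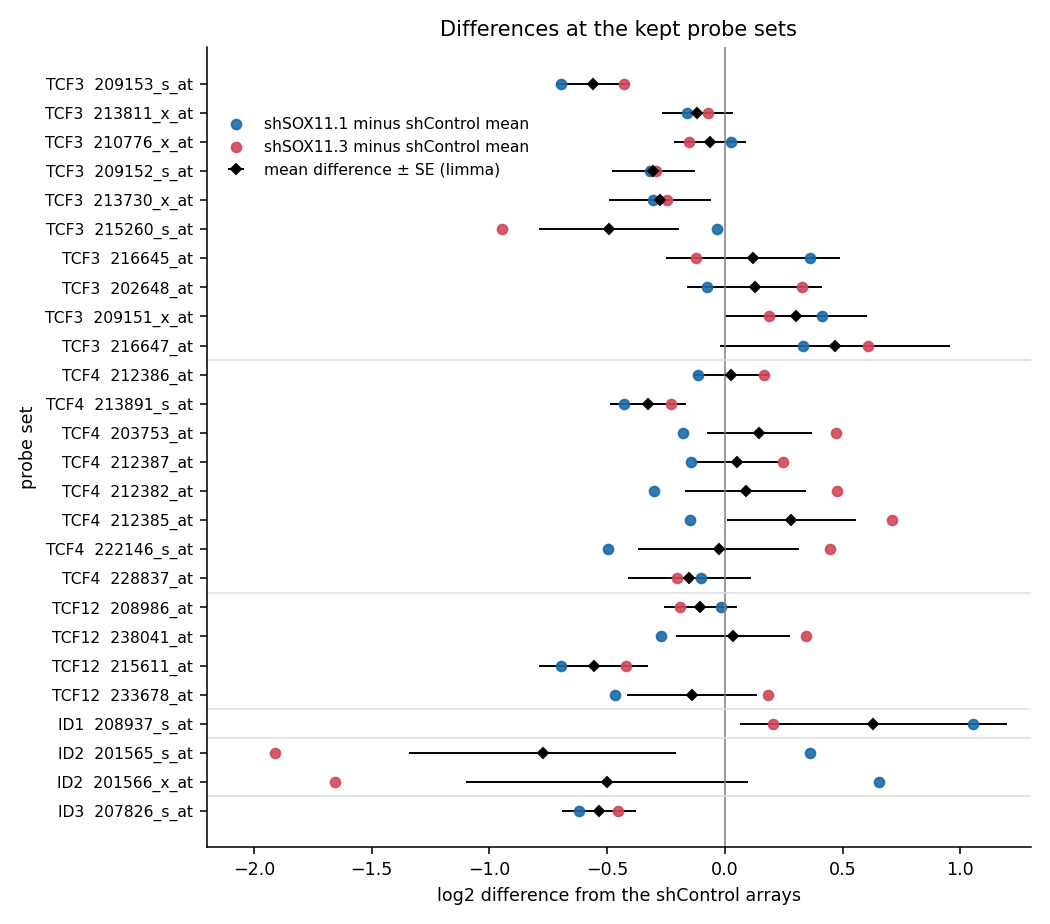
Log2 difference from the shControl arrays (horizontal axis) at the 26 kept probe sets of the 6 genes (vertical axis), with the group difference and its limma standard error in black and each shSOX11 array minus the shControl mean in colour. TCF3 probe sets spread from -0.56 to 0.47, TCF4 probe sets split by hairpin, and the ID2 points lie farthest apart.

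Over the 26 kept probe sets of the 6 genes together, 6 had both shSOX11 arrays below both shControl arrays, where 21.8% of all kept probe sets were, and 2 were higher, where 18.9% were. At the remaining 18 the groups overlapped. Under an unadjusted p of 0.05 in limma were 3 of the 26, one each of TCF3, ID3 and TCF12, all lower (3.76% of all kept probe sets were lower and 4.5% higher at that level). The 3 fell without either shControl array and rose without either shSOX11 array, where some of the 26 were also higher. Over all genes the lower count also fell and rose in these fits, and the higher count rose without a shSOX11 array. With median centring 2 of the 26 were lower and 0 higher, while 633 of all kept probe sets were lower and 1911 higher, against 1060 and 1269 as deposited. None passed an adjusted p of 0.05 in limma, where 0.00355% of all kept probe sets did, which is 1 probe set. None of the 26 (0) differed by 1.5-fold or more in every one of the 4 array pairs between the groups (1.87% of all were lower and 1.45% higher). The median log2 change was -0.08, with 15 lower and 11 higher in the mean (53.3% and 46.7% of all), and 13 each way with median centring.

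**Figure D3:**
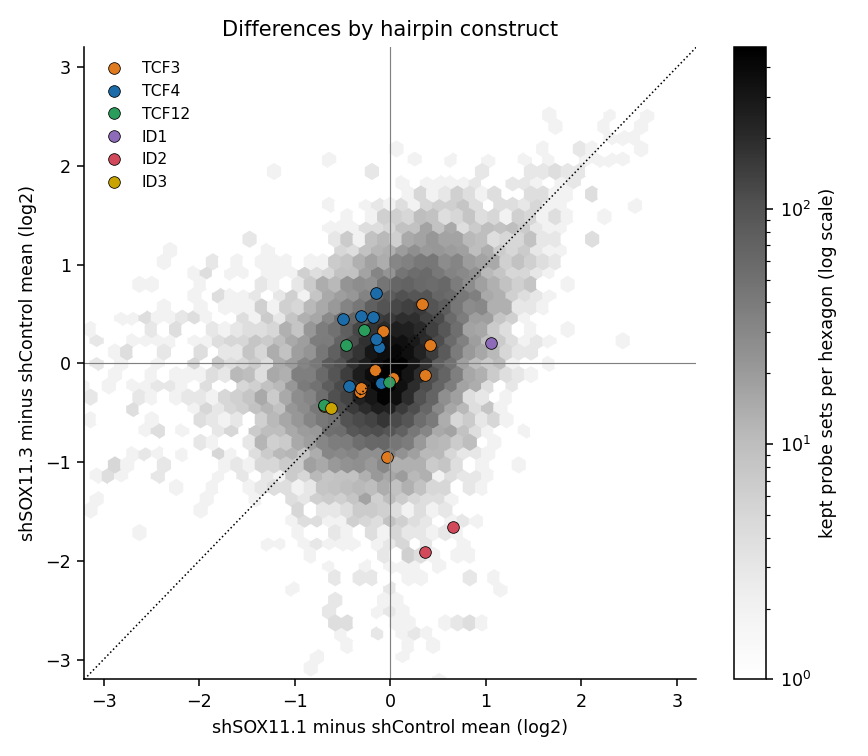
Log2 difference from the shControl mean with shSOX11.1 (horizontal) and shSOX11.3 (vertical) for the 26 kept probe sets of the 6 genes (coloured points) over all 28202 kept probe sets (grey hexagons, log colour scale; 159 beyond 3.2 on either axis are not drawn), with equality as a dotted line. Both ID2 points lie far below the dotted line, 6 of the 8 TCF4 points lie to the left of 0 and above 0, and ID3 lies lower on both axes.

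The genes whose signals over the 4 arrays were most like those of TCF3, by root mean square difference of log2 signals centred on each gene's mean, were MYO1C (0.03), ARHGAP30 (0.03) and ZHX3 (0.03). Those most like ID3 were VWCE (0.02), ZSCAN12 (0.02) and COA7 (0.03). With 4 arrays many genes share such a profile: 120 of 11937 genes lay within 0.1 of TCF3 and 164 within 0.1 of ID3.

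Genes that E proteins are known to activate or bind in B cells were compared next, from a list of 22 of which 17 were tested. Of the 17, 14 were lower and 3 higher in the mean (58.1% and 41.9% of all genes), with a median log2 change of -0.39, against -0.06 over all genes. At an unadjusted p under 0.05 in limma 7 were lower and 0 higher (4.98% and 3.4% of all genes), and 0 passed after adjustment over all genes. The 7 fell when either shControl array was left out, and so did the count of lower genes over all genes. With median centring 5 were lower and 0 higher, and the list median was -0.30 against 0.02 over all genes. At 8 the shSOX11 arrays were both below the shControl arrays, where 24.9% of all genes were, and at 0 both above (16.2% of all). Relative to the mean of the control hairpins the list median stood at -0.33 for shSOX11.1 and -0.41 for shSOX11.3. Between the control hairpins (shControl.2 minus shControl.1) it was 0.05. The list holds B-cell genes already known to be lower in these arrays when it was written, so its direction is not independent evidence. The lower beta-actin ratio with the SOX11 hairpins and the lower sums of B-cell and lymphoma, T and NK cell and erythroid markers moved with the same groups, and their part was not tested.

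The 4 genes of this list with the smallest p were VPREB3, which belongs to the pre-B cell receptor family, EBF1, the early B-cell factor, CD79B, which carries receptor signals in B cells, and POU2AF1, a coactivator of immunoglobulin transcription. Their log2 changes were -1.55 (SE 0.34), -0.61 (SE 0.14), -0.68 (SE 0.17) and -0.48 (SE 0.13), with limma adjusted p between 0.337 and 0.405. In all 4 the groups did not overlap, which their choice by smallest p favours (24.9% of all genes were lower with no overlap). VPREB3 differed between the hairpins, at 602 and 471 with the control hairpins, 121 with shSOX11.1 and 274 with shSOX11.3. Other targets, named after their values were seen, also differed between the hairpins. PAX5 was at 1845 and 1666 with the control hairpins, 646 with shSOX11.1 and 1450 with shSOX11.3. IGLL1, a surrogate light chain gene, was at 6637 and 7999 with the control hairpins, 7434 with shSOX11.1 and 3273 with shSOX11.3. IGLL1 was low on the array on which ID2 was low, which is 1 array, and a link between them was not tested. FOXO1, a forkhead factor needed in B-cell precursors, was at 201 and 157 with the control hairpins, 91.5 with shSOX11.1 and 161 with shSOX11.3. BLNK, an adaptor of the B-cell receptor, was at 1353 and 1142 with the control hairpins, 798 with shSOX11.1 and 1218 with shSOX11.3. Both were low with shSOX11.1 alone.

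**Figure D4:**
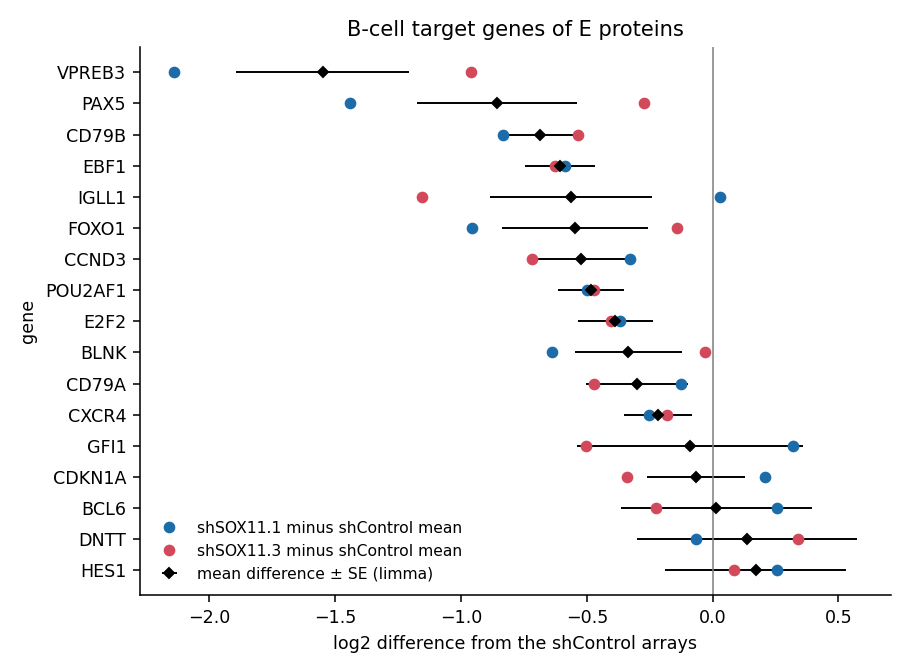
Log2 difference from the shControl arrays (horizontal axis) for the 17 tested B-cell target genes of E proteins (vertical axis), with the group difference and its limma standard error in black and each shSOX11 array minus the shControl mean in colour. The group differences run from -1.55 for VPREB3 to 0.17 for HES1, and IGLL1 and FOXO1 are low with 1 hairpin each.

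Among 24 genes that regulate ID expression or the stability of ID proteins, 17 were tested, with 2 lower and 3 higher at an unadjusted p under 0.05 in limma (4.98% and 3.4% of all genes) and 0 after adjustment over all genes. Without the intensity trend 1 was lower and 1 higher (570 and 321 of all genes). From means of probe sets 2 were lower and 1 higher (547 and 447 of all genes). With 1 array left out, the lower count fell without shControl.1 or shSOX11.1. The higher count fell without shControl.1, shControl.2 or shSOX11.3. Over all genes both counts fell without a shControl array and rose without a shSOX11 array. BMPR2, a receptor for the bone morphogenetic proteins that induce ID genes, was at 198 and 180 with the control hairpins and 338 and 325 with the SOX11 hairpins, a log2 change of 0.81 (SE 0.17, limma adjusted p = 0.337). SMAD1, a signal transducer of those receptors, was at 107 and 68.0 with the control hairpins, 14.9 with shSOX11.1 and 53.2 with shSOX11.3, a log2 change of -1.59 (SE 0.58, limma adjusted p = 0.519). SMAD1 was below the signal threshold with shSOX11.1. EGR1, an immediate early factor that can induce ID3, had a log2 change of -1.12 (SE 0.28, limma adjusted p = 0.394). SMAD4, the partner that SMAD1 and SMAD5 share, was at 382 and 407 against 449 and 743, a log2 change of 0.55 (SE 0.24). The median log2 change of the 17 genes was -0.09, against -0.06 over all genes, with 12 lower and 5 higher in the mean (58.1% and 41.9% of all), and 9 and 8 with median centring.

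E protein co-regulators (15 listed, 12 tested) had 2 lower and 1 higher at an unadjusted p under 0.05 in limma (4.98% and 3.4% of all genes) and 0 after adjustment over all genes, with a median log2 change of -0.14 against -0.06 over all genes. The 2 fell in 10 of 14 alternatives, among them the fits without either shControl array and without shSOX11.3. The higher count fell without shControl.1, shControl.2 or shSOX11.1 and rose without shSOX11.3. Counts over all genes, lower and higher, fell without a shControl array and rose without a shSOX11 array. The acetyltransferase gene CREBBP, a coactivator of E proteins, was at 960 and 920 with the control hairpins and 670 and 676 with the SOX11 hairpins, a log2 change of -0.48 (SE 0.15, limma adjusted p = 0.446). Another acetyltransferase gene, KAT2B, was at 67.8 and 66.7 against 139 and 96.6, a log2 change of 0.79 (SE 0.27, limma adjusted p = 0.512). LDB1, which bridges E protein complexes, had a log2 change of -0.49 (SE 0.21), and CBFA2T3, a corepressor of the ETO family, one of -0.34 (SE 0.19).

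Of 27 other helix-loop-helix genes 23 had a probe set of their own on the array and 6 were tested, among them the E protein partners TAL1 and LYL1. HES6 was lower, at 793 and 789 with the SOX11 hairpins against 986 and 1121, a log2 change of -0.41 (SE 0.15, limma adjusted p = 0.519), and was the 1 gene of this list under an unadjusted 0.05 in limma, with 0 after adjustment. It was not under 0.05 with median centring, without the intensity trend or without either shControl array. HEY2, LYL1 and BHLHE41 had log2 changes of 0.22 (SE 0.16), -0.12 (SE 0.22) and 0.25 (SE 0.63). Of the E-box repressors, ZEB1 and ZEB2 were tested and SNAI1, SNAI2 and SNAI3 were under the filter. ZEB1 was at 432 and 395 against 479 and 305 and ZEB2 at 216 and 271 against 206 and 341, in each case with the shSOX11 arrays on either side of the shControl arrays, and neither lay under an unadjusted 0.05 in limma.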

How the data were processed

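Total RNA of 4 Z138 samples was hybridised to 1-colour Affymetrix U133 Plus 2.0 arrays with biotin label, per the labels. The authors deposited linear signal intensity values, 1 per probe set, and the submitters' processing notes name Affymetrix Expression Console and MAS5 without versions or a scaling target. MAS5 subtracts mismatch signals, which makes dim signals noisy, and the number of arrays limits the precision.

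Signals were taken to log2 with no pseudocount or further normalization. Probe sets above 24.8 on at least 2 of 4 arrays were kept. Of 54675 probe sets 41091 had 1 gene symbol, 1801 several and 11721 none, and 62 were array controls. Differences (shSOX11 minus shControl) were fitted with lmFit and eBayes of limma 3.58.1 in R 4.3.3 allowing an intensity trend. Tests were two-sided, and p-values were adjusted by Benjamini-Hochberg over 11938 genes (the brightest kept probe set each) and, separately, over 28202 probe sets, and the fit was tested on simulated data. Platform symbols were checked against RefSeq identifiers, and 0 needed an update. All 6 genes had promoter windows in the RefSeq table.

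Named were all probe sets of the 6 genes, the 3 genes most like TCF3 and ID3, and up to 4 genes of smallest p per list. IGLL1, FOXO1, BLNK, CSF3R, CSF1R and, as a target, PAX5 were named after their values were seen. The genes and lists were chosen with earlier results of these data known. Alternatives changed the scaling (quantile or median), added 32 before log2, moved the filter to percentile 35 or 65 or dropped it, ran limma robustly or with no trend, dropped _x_at probe sets, averaged a gene's probe sets, raised the adjusted threshold to 0.10 or dropped 1 array.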

Additional observations from a re-analysis of the deposited data

How the results depend on the processing

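No paired analysis was possible because the groups share only 1 construct number. At an adjusted p of 0.05, limma called 0 genes in every fit with 4 arrays and from 0 to 953 with 1 array left out (0 without either shControl array, 953 without shSOX11.1 and 211 without shSOX11.3). For probe sets the count of 1 became 0 with median centring, the filter at the 65th percentile, no filter, limma without the trend and no _x_at probe sets, and ran from 0 to 1585 with 1 array left out. Without a shSOX11 array the error rests on the control pair alone, and the lone shSOX11 array is assumed to vary like that pair. In such fits TCF3 passed without shSOX11.1 and without shSOX11.3 (limma adjusted p = 0.0423 and 0.0124), ID3 without shSOX11.3 (0.0356) and ID2 without shSOX11.1 (0.000468).

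With 4 arrays, the log2 changes of TCF3, TCF4, TCF12, ID1, ID2 and ID3 kept their direction and none passed in any alternative, except that ID1 was not tested with the filter at the 65th percentile. TCF3 ran from -0.56 to -0.08, the latter from the mean of its probe sets, and ID3 from -0.54 to -0.45. With median centring 210776_x_at of TCF3 turned to 0.020 and 222146_s_at of TCF4 to 0.056. With 1 array left out the direction turned for ID2 (-1.91 to 0.36 at 201565_s_at, -1.66 to 0.66 at 201566_x_at) and TCF4 (-0.11 to 0.17 at 212386_at, -0.18 to 0.47 at 203753_at, -0.15 to 0.25 at 212387_at, -0.30 to 0.48 at 212382_at, -0.15 to 0.71 at 212385_at, -0.50 to 0.44 at 222146_s_at and -0.45 to 0.15 at 228837_at). It also turned at TCF3 probe sets 210776_x_at (-0.15 to 0.025), 213730_x_at (-0.60 to 0.047), 216645_at (-0.42 to 0.66) and 202648_at (-0.075 to 0.33) and at TCF12 probe sets 238041_at (-0.27 to 0.34) and 233678_at (-0.47 to 0.18). The causes were not tested.

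The E protein targets at an unadjusted p under 0.05 in limma, 7 lower and 0 higher, became 4 lower without the trend. Over all genes 570 were lower without the trend, against 595. From means of probe sets 6 targets were lower and 1 higher (547 and 447 of all genes). With 1 array left out, the lower targets became fewer without either shControl array and more without either shSOX11 array. The count of lower genes over all genes moved the same way.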
